A study of Mus musculus with 6 samples.

Results

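The 35 genes described here encode proteins that build the peroxisome or carry out its fat oxidation, and they were taken from a fixed list of names. Each was found among the 18193 genes measured, and each gene is represented by 1 probe set, the brightest on average of those annotated to it alone. They comprise 14 genes counted here as peroxins, the proteins that assemble and divide the organelle. Pex5l, a relative of the import receptor Pex5, is counted with them. The rest are 19 enzymes counted here as matrix enzymes, which work inside the organelle, and 2 transporters of its membrane. The list is not complete, and 49 other peroxisomal genes were set beside it.

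Peroxisomes are small organelles bounded by a single membrane that shorten very long and branched fatty acids, make ether lipids and break down hydrogen peroxide. Their matrix proteins are made in the cytosol and carried in, folded, by cargo receptors that recognise short targeting signals, and a separate set of peroxins inserts the membrane proteins. In brown and beige fat, peroxisomes are known to multiply in the cold, and several of their genes are targets of the fatty acid receptors of the PPAR family.

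RNA came from inguinal white adipose tissue (iWAT), the subcutaneous fat of the groin, of male mice, with 3 wild-type (WT) and 3 Naa10-KO animals and 1 array per animal. Naa10 encodes the enzyme of the complex that acetylates the amino termini of many proteins, and the labels do not state in which cells it was deleted. None of the probe sets used carries its name, so the Naa10-KO labels could not be checked against the targeted gene. All 6 mice were kept for 15 weeks, from the age of 6 weeks, on a high-fat diet (HFD) that supplied 60% of its energy as fat, and all spent 4 h at 4 °C before the tissue was taken. Cold and diet were thus shared by both genotypes and were not compared.

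Values are log2 signals of an Affymetrix mouse genome array, whose probe sets are groups of short probes for 1 transcript, differences are Naa10-KO minus WT on that scale, and n = 3 arrays per genotype throughout. The median of all probe set values, 5.86, marks low signal. Of the 35 members, 33 had at least 1 group mean at or above this mark, and the other 2, Acox2 and Acot3, lay below it in both genotypes. All 13 measured markers of white adipocytes reached the mark in at least 1 genotype, with list means of 12.28 to 13.05 on WT and 12.50 to 12.84 on Naa10-KO arrays. Single markers had lower means in Naa10-KO in 9 and higher in 4, with a median difference of -0.13. Markers of some other cell types had list means that did not overlap between genotypes. Of 28 skeletal muscle markers measured, 26 reached the mark. Each Naa10-KO array was above every WT array in 24 of them, beside 10% of all genes. Their list means were 4.88 to 7.62 on WT and 10.09 to 10.32 on Naa10-KO arrays. Several of them, such as Neb and Mybpc2, reached the mark through their Naa10-KO mean alone. Of 13 brown and beige adipocyte markers measured, 10 reached the mark and 6 were higher on each Naa10-KO array. Their list means were 7.16 to 7.37 on WT and 8.12 to 8.58 on Naa10-KO arrays. Single markers had higher means in Naa10-KO in 9 and lower in 4, with a median difference of 0.56. Ucp1, under the mark on all WT arrays, had the largest difference, 6.17, and list means without it were not calculated. Of 12 macrophage markers, 1 was lower on each Naa10-KO array, or 8.33% beside 8.14% of all genes (Trem2, difference -2.80, adjusted p = 0.377 in limma). Their median difference was 0.015, and without Trem2 the list means overlapped, at 9.88 to 9.98 and 9.79 to 10.02. In bulk tissue, fewer cells of a type and less RNA per cell cannot be told apart. Naa10-KO replicate 1 stood apart in the control probe sets for Gapdh, where the 3' probe set exceeded the 5' one by 0.55 (other arrays, -0.27 to 0.012), and it held the lowest or the highest of the 6 values in 23 of 35 members (65.7%), against 43.0% of all genes.

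Promoters of 5 members are shown, chosen after their values were seen from the 13 members whose genotypes did not overlap, to set 3 genes with higher signal in Naa10-KO against both division factors. They come from the RefSeq promoter table (assembly GRCm38.p6), in which 29 of 35 members matched. Ehhadh, Pex6 and Pex13 were higher on each Naa10-KO array than on any WT array, and Pex11a and Pex11g, which act in division, were lower on each. Each sequence is the 250 bases before the annotated start, 5′ to 3′ on the gene's strand, and capitals mark matches on either strand to the motifs named after the sequences. They lie at chr16:21787835-21788084, minus strand (Ehhadh), chr17:46711226-46711475, plus strand (Pex6), chr11:23665884-23666133, minus strand (Pex13), chr7:79743132-79743381, minus strand (Pex11a) and chr8:3467649-3467898, minus strand (Pex11g).
Ehhadh: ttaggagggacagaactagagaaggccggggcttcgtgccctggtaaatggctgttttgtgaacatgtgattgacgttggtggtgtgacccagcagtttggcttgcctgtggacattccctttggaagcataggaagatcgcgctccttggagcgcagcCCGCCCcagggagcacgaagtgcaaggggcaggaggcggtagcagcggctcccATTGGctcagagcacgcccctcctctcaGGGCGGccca
Pex6: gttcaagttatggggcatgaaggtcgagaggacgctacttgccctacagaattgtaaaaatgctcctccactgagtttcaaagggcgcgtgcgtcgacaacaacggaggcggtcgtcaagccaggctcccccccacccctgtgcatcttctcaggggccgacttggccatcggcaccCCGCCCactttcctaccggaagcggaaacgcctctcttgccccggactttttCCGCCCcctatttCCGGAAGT
Pex13: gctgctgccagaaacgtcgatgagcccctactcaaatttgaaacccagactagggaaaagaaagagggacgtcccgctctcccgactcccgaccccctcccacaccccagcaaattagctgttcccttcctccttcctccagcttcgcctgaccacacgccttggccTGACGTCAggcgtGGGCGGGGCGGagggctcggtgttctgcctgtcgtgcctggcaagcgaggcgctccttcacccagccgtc
Pex11a: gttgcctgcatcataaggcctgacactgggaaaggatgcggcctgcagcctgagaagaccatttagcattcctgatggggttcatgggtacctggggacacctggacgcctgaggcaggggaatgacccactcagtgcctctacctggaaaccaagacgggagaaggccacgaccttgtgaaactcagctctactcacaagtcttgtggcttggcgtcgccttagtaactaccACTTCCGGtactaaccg
Pex11g: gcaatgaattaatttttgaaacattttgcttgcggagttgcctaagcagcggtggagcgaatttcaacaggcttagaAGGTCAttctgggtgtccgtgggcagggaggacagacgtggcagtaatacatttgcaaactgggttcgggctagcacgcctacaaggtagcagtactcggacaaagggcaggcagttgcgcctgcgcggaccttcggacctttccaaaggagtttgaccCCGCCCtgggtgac

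In these sequences the capitals are the GC box GGGCGG in Ehhadh, Pex6, Pex13 and Pex11g, a CCAAT box read on the opposite strand (ATTGG) in Ehhadh, and the ETS motif CCGGAAGT next to the start in Pex6 and, on the opposite strand, in Pex11a. Pex13 also holds the cyclic AMP response element TGACGTCA from base -83 to base -76, counted back from the start, and its GC boxes overlap by 1 base. Pex11g holds AGGTCA, the hexamer that nuclear receptors bind, from -173 to -168.

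Over the whole 300-base windows, which reach 50 bases past the start, the GC box was present in 21 of the 29 members (72.4%) and in 38.2% of 27025 genes with an entry. The shares of genes given here are over every entry, measured or not. No share was taken over genes that reach the low-signal mark, as most members do. TGACGTCA was present in 2 members (6.90%), Pex13 and Pex11g, and in 2.03% of all genes. The Pex11g match does not lie wholly within the 250 bases shown, so it carries no capitals there. AGGTCA was present in 6 members (20.7%) against 18.1% of genes. A direct repeat of that hexamer with 1 base between the copies, the form bound by PPAR receptors, was found with up to 2 mismatches in Acox2, Acot4 and Cat (10.3% of members, 4.40% of genes), and the AGGTCA matches counted above can lie inside it. CCAAT was present in 14 members (48.3%, against 41.1% of genes), TATAAA in 4 (13.8%, against 15.7%), CACGTG in 2 (6.90%, against 8.09%) and CCGGAAGT in 2 (6.90%, against 4.31%). The NRF1 motif was in 0 of 29, and in 1.07% of genes. A match is a description of the letters, and its absence says only that the letters are not in this window.

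Across the members, genotype separated 1 gene at the threshold. Pex5l fell in Naa10-KO fat, 3.79-fold in linear signal, and no member rose, in limma at an adjusted p of 0.05 over all genes. That is 1 of 35 members lower and 0 of 35 higher, against 0.0275% and 0.0879% of all genes. At an unadjusted p under 0.05 there were 5 of 35 members (Pex5l, Pex19, Acox3, Ehhadh and Crat), against 9.2% of all genes. The genotypes did not overlap in 13 members: the 3 Naa10-KO values were all higher in 5 (10% of all genes) and all lower in 8 (8.14% of all genes). These 13 members come to 37.1% of the 35, beside 18.1% of all genes and 23.1% of genes that reach the low-signal mark. Of these, 12 did not pass. Without Naa10-KO replicate 1, which stood apart, 6 members were higher and 9 lower without overlap, and 0 passed. With the smaller group more genes of any kind do not overlap, and the shares of all genes were then 14.3% and 11.3%. The part of muscle and brown fat RNA in these counts was not tested.

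**Figure D1:**
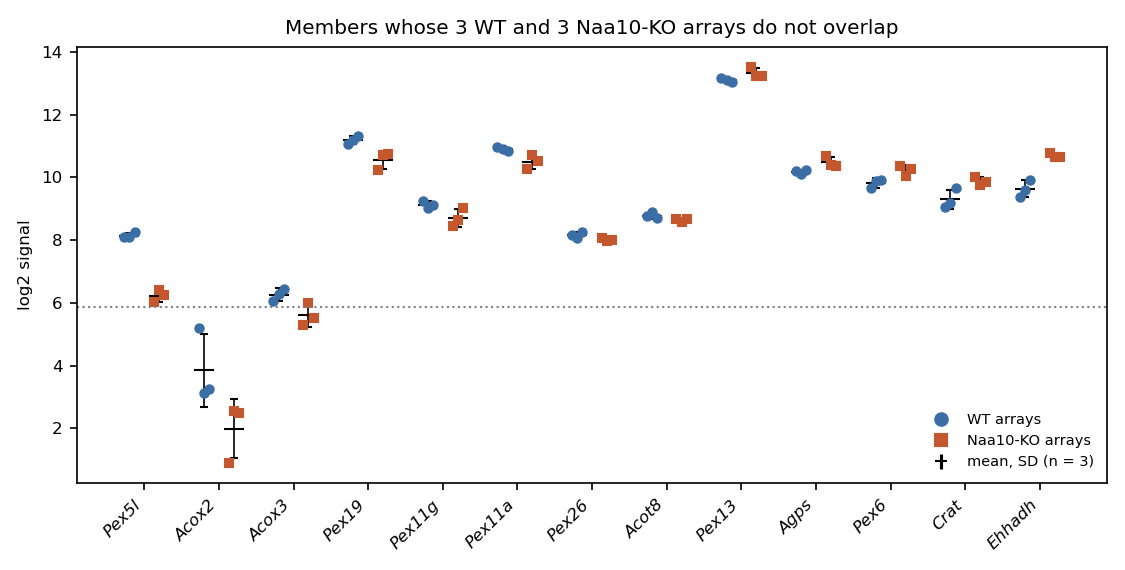
Log2 signal of the 13 members whose genotypes do not overlap, ordered within the lower and the higher group by the size of the difference, with each array as a point (circles WT, squares Naa10-KO) and bars for the mean and SD of 3 arrays. The dotted line is the median of all probe set values, 5.86; Acox2 lies below it on all 6 arrays, and Pex5l has the clearest gap, with WT arrays at 8.09 to 8.25 and Naa10-KO arrays at 6.02 to 6.41.

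The cargo receptors include the one member that passed. Pex5l is a relative of the import receptor Pex5 that is known mainly from neurons, where it binds the channels that carry the pacemaker current. Its log2 signals were 8.09, 8.10 and 8.25 on the WT arrays and 6.02, 6.41 and 6.24 on the Naa10-KO arrays. The WT arrays lay close together and the Naa10-KO arrays were all lower, at 8.15 ± 0.09 and 6.22 ± 0.20 (SD), a difference of -1.92 (SE 0.16, 95% interval -2.33 to -1.52, adjusted p = 0.046). The gene has 3 further probe sets. One of them followed the same course, at 6.44 ± 0.66 in WT and 3.83 ± 1.35 in Naa10-KO, with no overlap and a difference of -2.60 at low signal. The other 2 differed by -0.33 and 0.50, and their groups overlapped. When all probe sets were tested one by one, the adjusted p of the probe set used was 0.0934. The call was also lost without any 1 of the 6 arrays (adjusted p between 0.0833 and 0.205, differences between -2.02 and -1.82). Nerve and Schwann cell markers, 13 measured and 6 of them at or above the low-signal mark, had list means of 5.62 to 5.80 on WT and 5.63 to 6.18 on Naa10-KO arrays. Single markers went both ways, with higher means in Naa10-KO in 8 and lower in 5. Groups did not overlap in Mbp (difference 1.05) and S100b (-1.41), or 15.4% of the list, beside 18.1% of all genes. The part of nerve and Schwann cells in the Pex5l result was not tested.

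**Figure D2:**
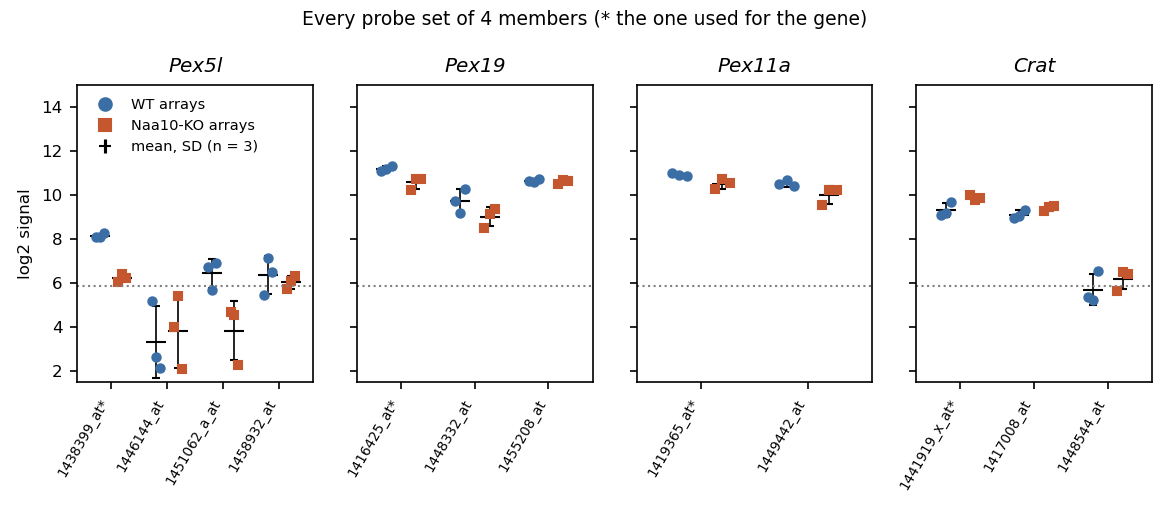
Log2 signal of every probe set of Pex5l, Pex19, Pex11a and Crat, with each array as a point (circles WT, squares Naa10-KO) and bars for the mean and SD of 3 arrays; an asterisk marks the probe set used for the gene and the dotted line is the median of all probe set values. Both Pex11a probe sets separate the genotypes, 2 of the 4 Pex5l probe sets do, and 1 of the 3 Pex19 probe sets lies at the same level in both, 10.64 and 10.58.

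Pex5 itself, which brings in the many enzymes with a carboxy-terminal signal, differed by -0.012 (SE 0.19, 95% interval -0.48 to 0.46, adjusted p = 0.99), with overlapping groups. Pex7, the receptor for the amino-terminal signal, had log2 signals of 12.05, 11.94 and 11.83 on the WT arrays and 12.07, 12.04 and 11.99 on the Naa10-KO arrays. Its difference was 0.092 (95% interval -0.25 to 0.43), and WT replicate 1 lay inside the Naa10-KO range. Neither of these main import receptors separated the genotypes.

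At the membrane, Pex13 and Pex14 form the docking site where loaded receptors arrive. Pex13 had log2 signals of 13.17, 13.11 and 13.04 on the WT arrays and 13.53, 13.24 and 13.22 on the Naa10-KO arrays. Every Naa10-KO array was above every WT array, by a narrow margin, and the difference was 0.22 (SE 0.15, 95% interval -0.16 to 0.60, adjusted p = 0.676). Its second probe set differed by 0.061, with overlapping groups. Pex14 pointed the other way, at -0.30 (95% interval -0.78 to 0.18, adjusted p = 0.658), with Naa10-KO replicate 3 inside the WT range.

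Pex2 and Pex10 are RING proteins of the ubiquitin ligase that marks receptors for recycling. Pex2 had log2 signals of 11.51, 11.46 and 11.17 on the WT arrays and 11.48, 11.48 and 11.62 on the Naa10-KO arrays. The groups overlapped and the difference was 0.14 (95% interval -0.25 to 0.54). Pex10 differed by -0.041 (95% interval -0.71 to 0.63) and also overlapped.

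Ubiquitin-marked receptors are pulled back out of the membrane by an ATPase that contains Pex6 and is anchored by Pex26. Pex6 had log2 signals of 9.65, 9.90 and 9.91 on the WT arrays and 10.37, 10.05 and 10.26 on the Naa10-KO arrays. All Naa10-KO arrays were higher, and the difference of 0.41 (SE 0.16, 95% interval -0.0042 to 0.82, adjusted p = 0.542) was measured by an x_at probe set, a kind that can also bind related transcripts. The other 4 Pex6 probe sets differed by 0.031 to 0.34, all positive and all with overlapping groups. Its anchor Pex26 lay the other way, with 8.15, 8.08 and 8.25 on the WT arrays and 8.06, 7.97 and 7.996 on the Naa10-KO arrays. These Naa10-KO arrays were all lower by a small margin, with a difference of -0.15 (SE 0.13, 95% interval -0.48 to 0.18, adjusted p = 0.731).

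Pex3, Pex16 and Pex19 insert proteins into the peroxisomal membrane, with Pex19 as the soluble carrier and Pex3 as its docking partner. Pex19 had log2 signals of 11.07, 11.18 and 11.31 on the WT arrays and 10.23, 10.72 and 10.73 on the Naa10-KO arrays. All Naa10-KO arrays lay below all WT arrays, and replicate 1 of Naa10-KO was the lowest. The difference was -0.63 (SE 0.20, 95% interval -1.12 to -0.13, adjusted p = 0.501), a 1.54-fold lower linear signal, and without Naa10-KO replicate 1 it was -0.46. A second probe set differed by -0.72, with overlapping groups, and another by -0.053. Pex16 differed by -0.43 (95% interval -1.03 to 0.17), with Naa10-KO replicate 3 inside the WT range. Its mean over both probe sets was 0.13, the second probe set lying at low signal. Pex3 had log2 signals of 11.42, 11.33 and 11.00 on the WT arrays and 11.53, 11.36 and 11.36 on the Naa10-KO arrays, which overlap, and a difference of 0.16 (95% interval -0.27 to 0.59).

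The division factors were both lower in every Naa10-KO array. Pex11a, which lengthens peroxisomes before they divide and is known as a PPAR target, had log2 signals of 10.97, 10.91 and 10.84 on the WT arrays and 10.27, 10.72 and 10.52 on the Naa10-KO arrays. Its difference was -0.40 (SE 0.17, 95% interval -0.83 to 0.024, adjusted p = 0.552), and its second probe set gave -0.53, again with no overlap. Pex11g had log2 signals of 9.25, 9.02 and 9.13 on the WT arrays and 8.46, 8.64 and 9.01 on the Naa10-KO arrays, where Naa10-KO replicate 3 and WT replicate 2 were almost equal. Its difference was -0.43 (SE 0.20, 95% interval -0.92 to 0.059, adjusted p = 0.572). Here the probe sets parted: a second one differed by -0.10 with overlap, and another, at lower signal, was higher on each Naa10-KO array, with a difference of 0.91. Without Naa10-KO replicate 1 the differences of the probe sets used were -0.28 for Pex11a and -0.31 for Pex11g.

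None of the 7 members of the core beta-oxidation pathway passed; means were lower in 5 of them and higher in 2, with a median difference of -0.29 (-0.25 over the 6 that reach the low-signal mark). The pathway starts with acyl-CoA oxidases, which produce hydrogen peroxide. Acox3, an oxidase of branched chains, had log2 signals of 6.05, 6.28 and 6.46 on the WT arrays and 5.29, 6.01 and 5.52 on the Naa10-KO arrays. All Naa10-KO arrays were lower, with a difference of -0.66 (SE 0.24, 95% interval -1.26 to -0.050, adjusted p = 0.531), and 2 of them lay under the low-signal mark. With values under the mark raised to it, the difference was -0.36. Acox2, an oxidase of bile acid precursors, had log2 signals of 5.20, 3.13 and 3.24 on the WT arrays and 0.90, 2.55 and 2.50 on the Naa10-KO arrays. Its Naa10-KO arrays were all lower as well, but every array lay under the mark, so the gene has no difference once values are raised to it.

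Ehhadh and Hsd17b4 are the bifunctional enzymes of the steps that follow, acting on different stereoisomers. Ehhadh, known as one of the strongest PPAR targets in liver, had the highest positive difference among the 33 members that reach the low-signal mark. Its log2 signals were 9.38, 9.61 and 9.92 on the WT arrays and 10.77, 10.66 and 10.64 on the Naa10-KO arrays. All Naa10-KO arrays were higher and lay close together, at 10.69 ± 0.07 against 9.63 ± 0.27 in WT (SD), a 2.08-fold difference in linear signal. The difference of 1.06 (SE 0.18, 95% interval 0.59 to 1.52, adjusted p = 0.216) did not pass over all genes. It passed under limma's trend and robust options (adjusted p = 0.00776) and with low values raised to the mark (adjusted p = 0.0465). Over all alternatives its adjusted p ran from 0.00776 to 0.635, and with 1 array left out the difference lay between 0.93 and 1.20. The gene has 1 probe set. Skeletal muscle and brown fat marker lists were higher on the same 3 arrays, as given above, and their part in the Ehhadh values was not tested. Hsd17b4 differed by -0.21 (95% interval -0.60 to 0.18), while its second probe set was lower on each Naa10-KO array, at -0.36.

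**Figure D3:**
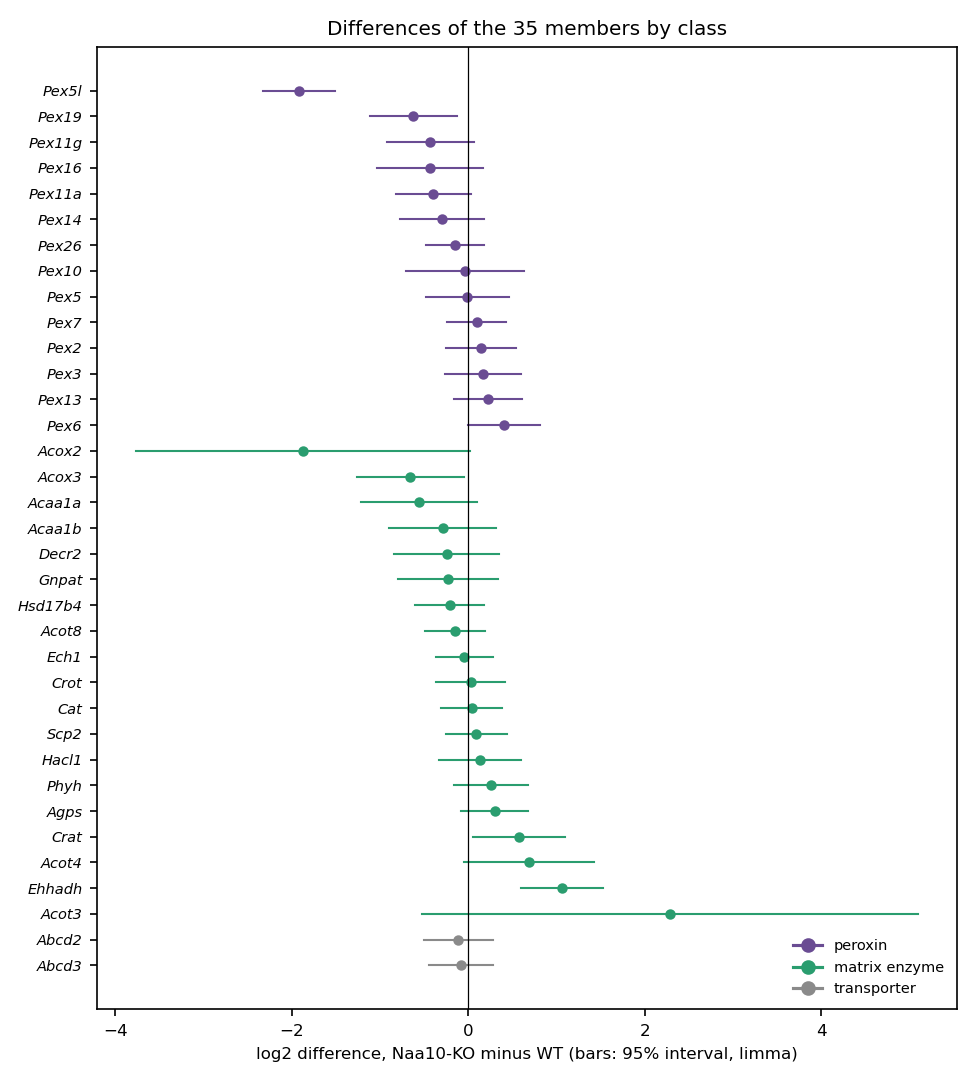
Log2 differences of all 35 members, Naa10-KO minus WT, with 95% intervals from limma, coloured by class and ordered by size within the class. The intervals of Pex5l, Pex19, Acox3, Ehhadh and Crat do not reach 0; the wide intervals belong to Acox2 and Acot3, which lie under the low-signal mark.

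The last step is cleavage by thiolases. Acaa1a differed by -0.56 (95% interval -1.22 to 0.10, adjusted p = 0.587) and Acaa1b by -0.29 (95% interval -0.90 to 0.31), each with Naa10-KO replicate 3 inside the WT range. These genes are close copies, and 2 further probe sets carry the names of both, with differences of -0.58 and -0.48. All 5 probe sets that name either gene had lower means in Naa10-KO, 1 of them with no overlap, but signals of the 2 genes cannot be separated fully. Scp2, which encodes a thiolase for branched chains and a sterol carrier from 1 gene, had log2 signals of 15.05, 14.91 and 15.03 on the WT arrays and 15.18, 15.09 and 14.99 on the Naa10-KO arrays. Its groups overlapped and the difference was 0.091 (95% interval -0.25 to 0.43).

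Auxiliary enzymes prepare unsaturated chains. Ech1, an isomerase also found in mitochondria, had log2 signals of 14.44, 14.51 and 14.48 on the WT arrays and 14.51, 14.42 and 14.37 on the Naa10-KO arrays. These lie close together on all 6 arrays. Its difference of -0.046 has a 95% interval of -0.37 to 0.27. Decr2, a reductase, differed by -0.25 (95% interval -0.84 to 0.34).

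Shortened chains leave the peroxisome as free acids, released by thioesterases, or as carnitine esters. None of the 5 thioesterases and carnitine transferases passed, and means were higher in 4 of them. Their median difference was 0.57 with Acot3, which lies under the low-signal mark, 0.30 over the 4 members that reach the mark, and 0.047 over all 5 with low values raised to it. Crat, the carnitine acetyltransferase of peroxisomes and mitochondria, had log2 signals of 9.07, 9.17 and 9.66 on the WT arrays and 10.001, 9.75 and 9.86 on the Naa10-KO arrays. The Naa10-KO arrays were all higher, with WT replicate 3 the closest, and the difference was 0.57 (SE 0.21, 95% interval 0.049 to 1.09, adjusted p = 0.53), a 1.49-fold higher linear signal. The probe set used ends in x_at, and the other 2 differed by 0.31 and 0.48 with overlapping groups. WT replicate 3 was also the WT array with the highest muscle list mean, 7.62 against 4.88 and 5.12, and Crat is strongly expressed by muscle; the part of muscle RNA in its values was not tested. Crot, the carnitine octanoyltransferase, had log2 signals of 11.57, 11.74 and 11.41 on the WT arrays and 11.57, 11.51 and 11.71 on the Naa10-KO arrays, which overlap, and differed by 0.024 (95% interval -0.37 to 0.41).

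Among the thioesterases, Acot8 had log2 signals of 8.76, 8.90 and 8.69 on the WT arrays and 8.67, 8.57 and 8.66 on the Naa10-KO arrays. The Naa10-KO arrays were all lower, with replicate 1 almost at the level of WT replicate 3, and the difference was -0.15 (SE 0.13, 95% interval -0.49 to 0.19, adjusted p = 0.746). Acot4 differed by 0.68 (95% interval -0.053 to 1.42, adjusted p = 0.553) with WT replicate 3 inside the Naa10-KO range, and its second probe set gave -0.23. Acot3 differed by 2.28 with an interval of -0.52 to 5.09, but WT signals ran from 0.95 to 5.15. Acot3 and Acot4 are close relatives whose probes may bind both transcripts. With Acot3 values raised to the low-signal mark its difference was 0.047.

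Catalase, encoded by Cat, removes the hydrogen peroxide that the oxidases make. Its log2 signals were 14.44, 14.40 and 14.54 on the WT arrays and 14.51, 14.39 and 14.60 on the Naa10-KO arrays. The groups overlapped, the difference was 0.037 (95% interval -0.31 to 0.38), and its second probe set differed by 0.085.

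Phyh and Hacl1 act in turn in the alpha-oxidation of branched chains such as phytanic acid. Phyh had log2 signals of 12.89, 13.19 and 13.23 on the WT arrays and 13.49, 13.38 and 13.21 on the Naa10-KO arrays. The groups overlapped through replicate 3 of each genotype, with a difference of 0.25 (95% interval -0.17 to 0.68, adjusted p = 0.665). Hacl1, the lyase, differed by 0.14 (95% interval -0.33 to 0.60).

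Gnpat and Agps make the first ether lipid intermediates. Gnpat, which attaches the first acyl chain, had log2 signals of 11.11, 11.63 and 11.45 on the WT arrays and 10.92, 11.46 and 11.12 on the Naa10-KO arrays. These overlap widely, with a difference of -0.23 (95% interval -0.80 to 0.33). Agps, which then exchanges that chain for a fatty alcohol, had log2 signals of 10.21, 10.11 and 10.23 on the WT arrays and 10.67, 10.41 and 10.36 on the Naa10-KO arrays. All Naa10-KO arrays were higher, with a difference of 0.30 (SE 0.15, 95% interval -0.085 to 0.68, adjusted p = 0.601), and a second probe set differed by 0.20, also without overlap.

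The transporters Abcd2 and Abcd3 bring acyl-CoA into the organelle, and Abcd2 is known to be abundant in adipocytes. Abcd2 had log2 signals of 13.59, 13.67 and 13.65 on the WT arrays and 13.65, 13.61 and 13.30 on the Naa10-KO arrays. Its groups overlapped, with a difference of -0.11 (95% interval -0.50 to 0.28). Of its other 3 probe sets, 1 was lower on each Naa10-KO array, at -0.46, and the others differed by -0.26 and 0.0077. Abcd3 differed by -0.088 (95% interval -0.45 to 0.27).

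Several probe sets gave a check within the same arrays. Of the 35 members, 14 have 1 probe set and 21 have more. In 17 members at least 2 probe sets reached the low-signal mark, and their differences had 1 sign in 12. They had both signs in the other 5, Abcd2, Acot4, Pex11g, Pex3 and Scp2.

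Set against each other, peroxins had lower means in 9 of 14 and higher in 5, and matrix enzymes had lower means in 9 of 19 and higher in 10. Their median differences were -0.097 for peroxins and 0.024 for matrix enzymes, beside 0.013 for all genes. Neither median was stable: with 1 array left out the peroxin median ran from -0.17 to -0.054 and the matrix enzyme median from -0.043 to 0.066. The peroxin median was 0.0050 with the mean of each gene's probe sets, and the matrix enzyme median -0.072 with quantile normalization. Non-overlapping groups were found in 7 of 14 peroxins (50%), 5 of them lower, and in 6 of 19 matrix enzymes (31.6%), 3 of them lower, beside 18.1% of all genes and 23.1% of genes that reach the mark. The mean of the 14 peroxins, taken on each array as the deviation from each gene's WT mean, was 0.033, 0.0098 and -0.043 on the WT arrays and -0.29, -0.22 and -0.20 on the Naa10-KO arrays. All Naa10-KO arrays were lower. Without Pex5l the Naa10-KO values were -0.15, -0.099 and -0.065 and the WT values 0.040, 0.014 and -0.054, so 1 gene made up a large share of the gap. The arrays then did not overlap only by a narrow margin, with Naa10-KO replicate 3 at -0.065 and WT replicate 3 at -0.054. Medians of all probe sets on single arrays ran from 5.78 to 5.96, a much wider spread. Whether the 13 peroxins stay apart on arrays centred on their medians was not tested. The same mean of the 19 matrix enzymes was -0.11, -0.030 and 0.14 on WT and -0.081, 0.14 and 0.13 on Naa10-KO arrays, which overlap.

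The matrix enzyme mean minus the peroxin mean, within each array, was -0.14, -0.040 and 0.18 on WT and 0.21, 0.36 and 0.32 on Naa10-KO arrays, a genotype difference of 0.30. Without Pex5l it was 0.17, with overlapping arrays. Without Pex5l, Acot3 and Acox2 it was 0.15, and the arrays lay at -0.12, 0.011 and 0.11 in WT and 0.13, 0.15 and 0.16 in Naa10-KO. No test was made of these class values, since the lists were drawn up with results known, and single genes of either class lay on both sides of 0.

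**Figure D4:**
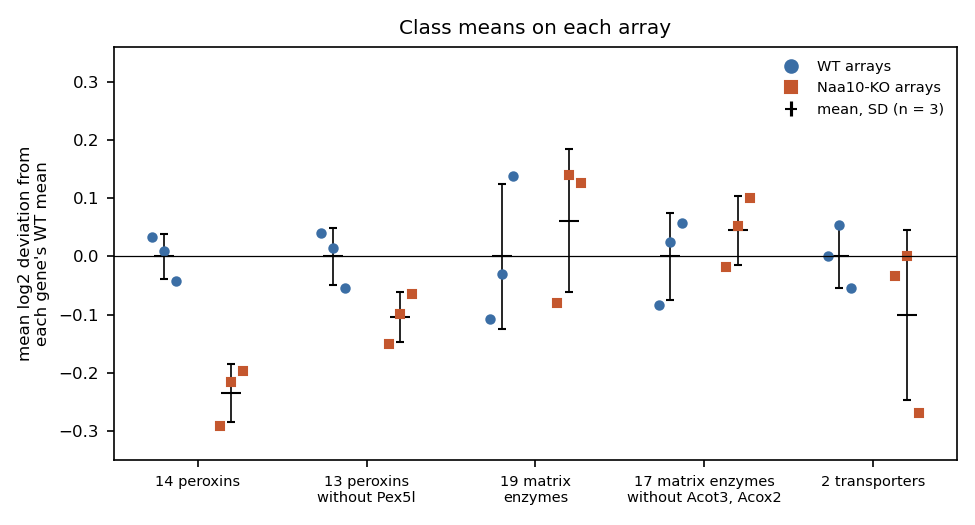
Mean deviation of each class from its genes' WT means, in log2 units, on each array (circles WT, squares Naa10-KO), with bars for the mean and SD of 3 arrays. The 14 peroxins lie at -0.29 to -0.20 on the Naa10-KO arrays and at -0.15 to -0.065 once Pex5l is left out, while the 19 matrix enzymes overlap between genotypes.

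Of 49 other peroxisomal genes, 41 were measured, and 0 rose, 0 fell and 41 did not pass in limma, with 5 at an unadjusted p under 0.05. Means were higher in 20 and lower in 21, the median difference was -0.00294, and groups did not overlap in 10 of 41 (24.4%, beside 18.1% of all genes and 23.1% of genes that reach the low-signal mark). Slc27a2, which activates very long fatty acids, had log2 signals of 1.77, 3.12 and 1.51 on WT and 7.09, 8.69 and 7.12 on Naa10-KO arrays (difference 5.50, SE 0.64, adjusted p = 0.0954), with all WT arrays under the low-signal mark. It was the 1 gene of this list that passed in an alternative, namely under the trend and robust options and under the filter on low values. That filter kept Slc27a2 through its Naa10-KO mean alone (7.63, against 2.13 in WT). With values under the mark raised to it, Slc27a2 did not pass. Mpv17l, a membrane protein linked to the handling of reactive oxygen, had means of 8.02 ± 0.13 (WT) and 7.08 ± 0.35 (Naa10-KO, SD), a difference of -0.94 (adjusted p = 0.383). Atad1, an ATPase that extracts misplaced membrane proteins, had means of 10.85 ± 0.01 and 11.38 ± 0.13 (difference 0.52, adjusted p = 0.437).

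The receptors known to control peroxisomal genes did not pass either. None of 10 receptors and coactivators passed in limma, 0 of them had an unadjusted p under 0.05 and 0 had separated groups. Ppara differed by 0.34 (SE 0.26), Pparg by 0.16 (SE 0.17) and Ppargc1a by 0.27 (SE 0.33), with adjusted p between 0.706 and 0.809. Of 28 PPAR target genes outside the peroxisome, 24 were measured, 1 rose (Fabp3, a fatty acid carrier also abundant in muscle, difference 5.05, adjusted p = 0.0270), 0 fell and 23 did not pass. The Fabp3 call was lost on leaving out any array but WT replicate 3, and the part of muscle RNA in it was not tested. Groups were separated in 6 of these 24 genes, each with Naa10-KO higher (25%), and the median difference was 0.087. Of all genes, 10% were separated with Naa10-KO higher and 18.1% in either direction. Among genes that reach the low-signal mark these shares were 13.3% and 23.1%. Next by p were Acot1, a cytosolic thioesterase, at 1.40 (SE 0.39, adjusted p = 0.473) and Plin5, a lipid droplet protein of oxidative tissue, at 0.74 (SE 0.27, adjusted p = 0.529). For scale, Ucp1, the uncoupling protein, had means of 3.79 ± 1.09 (WT) and 9.95 ± 0.69 (Naa10-KO, SD), with an adjusted p of 0.0713.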

How the data were processed

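The authors deposited 1 log2 signal per probe set and array, for 45101 probe sets on 6 arrays; the software, not given in the sources used here, is unknown. On the linear scale the mean after trimming 2% at each end was 500 on every array, so each array had been scaled to 1 level. Values were used as deposited. Besides 64 controls, 34945 probe sets had 1 gene in GEO's platform annotation, 932 had several and 9160 had none; the last 2 kinds entered no gene test. Of several probe sets of a gene, the one with the highest 6-array mean stood for it.

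All 18193 genes were fitted in limma 3.58.1 (R 4.3.3, functions lmFit and eBayes, genotype as the only term, 2-sided, Benjamini-Hochberg adjustment over all genes, threshold 0.05). The number of arrays limits the precision. The labels do not tie the animals to litters or days. The limma fit and the check for groups that do not overlap were tested on simulated data with known shifts. Probe set choice, class means and promoter matches were not tested in this way.

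Members and lists were chosen with earlier results of these data known, and the motifs and the exclusions of Pex5l, Acot3 and Acox2 after values were seen. Array values are given for members called in any fit, members whose groups do not overlap and the member with the highest mean of each role. Of each other list at most 3 genes are named by p, besides Ucp1, Ppara, Ppargc1a and Pparg. Neb and Mybpc2 are named outside this rule, as examples of muscle markers with low WT means. Alternatives were quantile normalization, median centring, a filter and a floor for low values, the mean of a gene's probe sets, x_at and s_at probe sets left out, trend and robust options, array weights, a replicate block and each array left out. Promoters are those of the RefSeq table.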

Additional observations from a re-analysis of the deposited data

How the results depend on the processing

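Both genotypes have arrays numbered 1 to 3, and same-numbered arrays did not deviate together (correlations of -0.01, -0.01 and -0.03 over genes), so these numbers showed no pairing. The sample labels also carry other numbers, and a grouping by those was not tested. With the replicate block no gene passed, and Pex5l had an adjusted p of 0.324 at the same difference of -1.92. The Pex5l call was also lost with arrays centred on their medians (adjusted p = 0.0562), with the mean of all its probe sets (-1.09, adjusted p = 0.584) and without any 1 array; the count of members lower was 0 in each of these fits and 1 otherwise. The count of members higher was 1 (Ehhadh) with the floor and with trend and robust options, and 0 otherwise. Members with all Naa10-KO arrays above numbered 3 with centring, 3 without x_at and s_at probe sets and 1 with the mean of probe sets, and 5 to 8 with 1 array left out (8 without WT replicate 1 or 3, when 14.4% and 17.1% of all genes lay above); those below numbered 6 with quantile normalization, 6 to 10 over the alternatives that keep all arrays, and 8 to 14 with 1 array left out. The 14 came without Naa10-KO replicate 3 and 12 without WT replicate 3, where 14.6% of all genes lay below in each case, against 8.14% with all arrays. The peroxin median was 0.0050 with the mean of probe sets, -0.041 without Pex5l and -0.17 to -0.054 with 1 array left out. The matrix enzyme median was -0.072 with quantile normalization, -0.025 with array weights and -0.043 to 0.066 with 1 array left out. The class difference ran from 0.23 to 0.39 with 1 array left out, and was 0.17 without Pex5l and 0.15 without Pex5l, Acot3 and Acox2. Other peroxisomal genes called numbered 1 with the filter and with trend and robust options. PPAR targets called numbered 0 with the mean of probe sets, with the replicate block and without each array but WT replicate 3, and 1 without that one. Signs of uncalled members turned for Scp2 (-0.048) and Cat (-0.072) with quantile normalization, Pex16 (0.13) and Pex11g (0.12) with the mean of probe sets, and Pex5 (0.031) and Crot (-0.025) with array weights. With 1 array left out they turned for Pex5 (range -0.13 to 0.13), Pex10 (-0.25 to 0.15), Crot (-0.058 to 0.11) and Cat (-0.013 to 0.092). The cause of these changes was not tested. Without detection calls, whether low signals lay above background is unknown.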
